A study of Mus musculus with 24 samples.

Results

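The enzymes examined here carry out steps of cholesterol synthesis, and they were chosen as the 7 genes Hmgcs1, Fdps, Fdft1, Sqle, Cyp51, Dhcr7 and Sc5d. Every probe set that the platform annotation gives to 1 of these symbols alone was taken. That gave 13 probe sets for the 7 genes, of 13674 genes named on both arrays: 11 probe sets on array A (MGU74A) and 2 on array B (MGU74B). Array A holds all 7 genes, and array B holds Cyp51 and Sc5d again. A probe set is a group of short oligonucleotides on an Affymetrix array that together give 1 intensity for a transcript.

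Total RNA from mouse brain was hybridised to both array designs, with 6 2N and 6 Ts1Cje samples on each, or 24 arrays in all. 2N animals have the normal chromosome number. Ts1Cje animals model Down syndrome and carry an extra dose of a distal segment of mouse chromosome 16, on which the additional copy of Sod1 is disrupted. The labels give brain as the tissue, without region, age, sex or strain, and they do not say whether samples were separate or pooled animals. The p-values therefore rest on sample-to-sample spread, part or all of which may be technical. None of the 7 genes lies on chromosome 16, so none belongs to the added segment. In RNA from brain tissue, fewer cells of a type and less RNA per cell cannot be told apart.

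Cholesterol is built from acetyl-CoA through mevalonate, farnesyl diphosphate, squalene and lanosterol. Brain makes nearly all of its own cholesterol, because lipoprotein cholesterol does not cross the blood-brain barrier, and glia, above all myelinating oligodendrocytes and astrocytes, are large producers. The genes of the pathway are known targets of SREBP-2, a membrane-bound transcription factor that is held back by INSIG proteins when sterols are plentiful. It binds sterol regulatory elements in promoters, usually beside sites for NF-Y, which binds CCAAT boxes.

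Promoter sequences of 4 of the 7 genes were found in the RefSeq table (build GRCm38.p6), in 6 windows because Dhcr7 has 3 annotated starts. The entries of Fdps, Fdft1 and Sqle were missing from it. The 250 bases before the start of Hmgcs1 (chr13:119690101-119690350, plus strand), Cyp51 (chr5:4104698-4104947, minus strand) and Sc5d (chr9:42264301-42264550, minus strand) are shown because joint control through these elements is the reason to ask whether the enzymes vary together. They run 5′ to 3′ toward the start, and capitals mark matches to the sterol regulatory element core CACNCCAC or to CCAAT on either strand (ATTGG is CCAAT on the other strand).
Hmgcs1: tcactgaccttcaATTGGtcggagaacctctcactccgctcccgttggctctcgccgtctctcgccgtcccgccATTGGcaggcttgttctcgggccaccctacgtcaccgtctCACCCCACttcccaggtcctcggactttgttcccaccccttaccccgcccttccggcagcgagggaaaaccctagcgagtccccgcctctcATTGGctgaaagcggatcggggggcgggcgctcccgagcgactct
Cyp51: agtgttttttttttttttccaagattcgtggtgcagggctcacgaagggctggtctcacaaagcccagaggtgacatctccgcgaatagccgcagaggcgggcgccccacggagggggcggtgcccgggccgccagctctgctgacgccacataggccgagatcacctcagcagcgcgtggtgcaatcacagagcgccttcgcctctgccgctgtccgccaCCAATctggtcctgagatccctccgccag
Sc5d: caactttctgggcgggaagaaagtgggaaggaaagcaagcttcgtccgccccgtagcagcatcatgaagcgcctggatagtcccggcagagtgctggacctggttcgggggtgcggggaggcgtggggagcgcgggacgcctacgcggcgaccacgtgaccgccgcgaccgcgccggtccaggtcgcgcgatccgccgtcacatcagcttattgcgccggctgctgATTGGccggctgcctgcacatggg
The Hmgcs1 window held 1 match to CACNCCAC, the letters CACCCCAC beginning at position -136 from the start, and 3 to CCAAT. The Cyp51 and Sc5d windows each held 1 match to CCAAT and 0 to CACNCCAC. Of the 3 Dhcr7 windows, 1 held CCAAT, in 2 places, and 0 held CACNCCAC. Among all 32851 windows of the same length in the table, 5.29% held CACNCCAC and 33.8% held CCAAT. The motifs do not overlap in the windows shown, and a match to letters is a description, not a measured binding site. Only this fixed core was searched, so a window without a match may still hold a sterol regulatory element of other letters.

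The arrays gave the following background for the enzymes. Neuronal transcripts were bright, with Tubb3 at 2673 ± 164 and Stmn2 at 1839 ± 181 in 2N (normalised intensity, SD, n = 6), and the glial Fabp7 and Aldoc were at 1086 ± 75.8 and 285 ± 42.6. The liver transcripts Alb, Afp and Fgb lay below the filter on dim probe sets. Of the listed oligodendrocyte and myelin markers 7 of 12 were tested, with the brightest, Pdgfra and Sox10, at 102 ± 14.4 and 59.7 ± 16.3. The tested myelin genes had lower intensities, with Mbp at 36.3 ± 6.92, Mag at 17.6 ± 3.49 and Mobp at 7.75 ± 5.33. Mog, Cnp and Ugt8a were below the filter. In the 8 cell type lists 0 genes passed the test (limma), and 1, the dim liver marker Apoa1, had an unadjusted p under 0.05. Among all tested genes the shares were 0.104% and 3.66%. Son, a gene of the additional segment, ran from 120 to 143 in 2N and from 206 to 267 in Ts1Cje, without overlap (log2 difference 0.92, SE 0.079, limma adjusted p = 1.03e-05). Over tested probe sets, Spearman correlations between samples were 0.920 to 0.963 for array A. For array B they were 0.880 to 0.925. Replicates 1 and 2 of both genotypes differed from replicates 3 to 6 at 2.31% of the tested probe sets of array A, at 1.59% of those of array B, and at 0 of the 11 tested probe sets of the enzymes (limma). That split was found in the data and has no label.

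The levels of the 7 enzymes overlapped between 2N and Ts1Cje brain, and none passed the test of a genotype difference. On array A 9 of 11 probe sets were bright enough to test, and 0 of 9 passed a Benjamini-Hochberg adjusted p under 0.05 in limma, where 0.0966% of all 9316 tested probe sets passed. On array B 0 of 2 passed, where 0.0645% of 9308 passed. An unadjusted limma p under 0.05 was reached by 0 of the 11, against 3.63% of all those tested on array A and 4.24% of those on array B. In 0 of the 11 did the groups not overlap, against 0.301% and 0.247%. The log2 difference, Ts1Cje minus 2N, was above 0 for 5 probe sets and below 0 for 6. Its median was -0.04 for array A and 0.04 for array B, beside -0.00424 and -0.00346 over all tested probe sets.

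**Figure D1:**
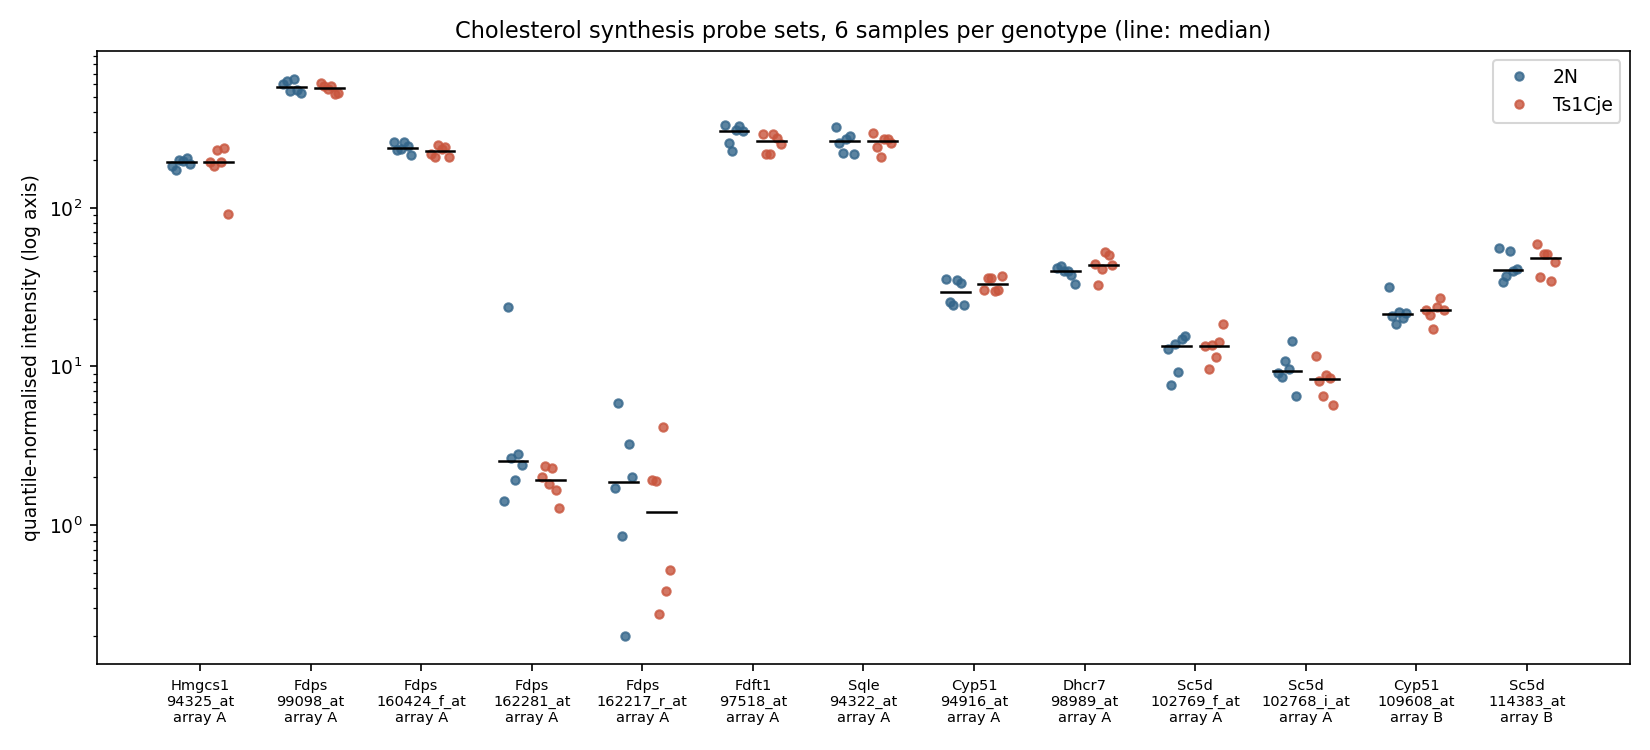
Quantile-normalised intensity (log axis) of the 13 probe sets of the 7 enzymes, with 1 point per sample, 6 2N in blue and 6 Ts1Cje in red, and a line at each median. The groups overlap for every probe set, a single Ts1Cje sample of Hmgcs1 lies at 91.3, and the 2 dim Fdps probe sets lie near the floor. Heights of different probe sets do not compare transcript amounts.

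At the entry to the pathway, Hmgcs1 encodes the cytosolic HMG-CoA synthase, which acts ahead of mevalonate. Its normalised intensity in 2N ran from 173 through a median of 193 to 205, and in Ts1Cje from 91.3 through 194 to 237. The medians were nearly equal, and the Ts1Cje samples were spread more widely because replicate 6 was low and replicates 3 and 5 were above every 2N sample. The SD was 11.6 in 2N and 52.1 in Ts1Cje (n = 6 each). The log2 difference was -0.08 (SE 0.17, 95% interval -0.44 to 0.27, limma adjusted p = 0.993). Permuting the genotypes gave an exact p of 0.90. Without Ts1Cje replicate 6 it was 0.11 (SE 0.085), so that sample set its sign.

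Fdps encodes farnesyl diphosphate synthase, whose product feeds both sterols and the lipid anchors of proteins. Its brightest probe set, 99098_at, ran from 527 through 577 to 651 in 2N and from 524 through 572 to 611 in Ts1Cje. The ranges nearly coincided, and the log2 difference of -0.04 had the narrowest interval of the enzymes, -0.19 to 0.10 (SE 0.068, limma adjusted p = 0.990). The second probe set, 160424_f_at, ran from 215 through 238 to 261 in 2N and from 208 through 226 to 248 in Ts1Cje, with a log2 difference of -0.08 (SE 0.074, adjusted p = 0.990). The suffix _f marks probes that also match related sequences, so this set may include signal of Fdps-like copies. The other 2 Fdps probe sets, 162281_at and 162217_r_at, had mean intensities of 3.87 and 1.92 and were not tested. They stood at the 19.5 and 6.83 percentiles of the array, while 99098_at stood at the 98.1 percentile, so probe sets given to the same gene differed widely in signal.

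Fdft1 encodes squalene synthase, the first enzyme committed to sterols. It ran from 229 through 306 to 331 in 2N and from 218 through 264 to 291 in Ts1Cje. All 6 Ts1Cje samples lay below the 2N median, yet the ranges overlapped because 2N replicates 2 and 3 were low as well. The log2 difference of -0.18 (SE 0.10, interval -0.40 to 0.04) did not pass, and only the dim Sc5d probe set 102768_i_at had a lower one among the enzymes (limma adjusted p = 0.990, exact permutation p = 0.15). It was -0.17 among replicates 3 to 6 and -0.21 among replicates 1 and 2. Over the alternatives and with each sample left out in turn it stayed between -0.25 and -0.14, with adjusted p no lower than 0.895. Without 2N replicate 3 its interval excluded 0, at -0.46 to -0.04. With the replicate number as a block it also excluded 0, at -0.31 to -0.06.

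Sqle encodes squalene epoxidase, which begins the conversion of squalene to lanosterol. It ran from 218 through 262 to 322 in 2N and from 210 through 264 to 298 in Ts1Cje. The medians and ranges were alike, and the log2 difference was -0.01 (SE 0.10, interval -0.23 to 0.20, limma adjusted p = 0.998). In both genotypes replicate 1 was the highest sample.

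Cyp51 encodes lanosterol demethylase, a cytochrome P450. On array A it ran from 24.5 through 29.4 to 35.4 in 2N and from 30.0 through 33.1 to 37.0 in Ts1Cje. All 6 Ts1Cje samples lay above the 2N median. The 2N samples fell into 3 at 24.5 to 25.4 and 3 at 33.4 to 35.4, and the Ts1Cje samples into 3 between these and 3 above them. The log2 difference was 0.17 (SE 0.15, interval -0.14 to 0.49, limma adjusted p = 0.990, exact permutation p = 0.18). On array B another Cyp51 probe set ran from 18.5 through 21.3 to 31.7 in 2N and from 17.2 through 22.7 to 27.0 in Ts1Cje. Its log2 difference was 0.000568 (SE 0.16, interval -0.33 to 0.33, adjusted p = 0.9997), so the higher Cyp51 values of array A were not repeated there.

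Sc5d encodes the desaturase that acts on lathosterol, and Dhcr7 encodes the reductase that completes cholesterol from its dehydro precursor. Sc5d was dim on array A and brighter relative to the rest of the array on array B, at the 44.0 and 36.6 percentiles of array A and the 85.6 percentile of array B. The array B probe set ran from 34.0 through 40.6 to 56.0 in 2N and from 34.5 through 48.1 to 59.2 in Ts1Cje. Its log2 difference was 0.08 (SE 0.15, interval -0.24 to 0.40, limma adjusted p = 0.996). The 2 array A probe sets differed in sign, at 0.14 (SE 0.25) for 102769_f_at and -0.26 (SE 0.29) for 102768_i_at, each with an adjusted p of 0.990. The suffix _i marks a set with fewer specific probes than the design aimed for.

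Dhcr7 ran from 33.0 through 39.9 to 42.7 in 2N and from 32.6 through 43.8 to 52.4 in Ts1Cje. Of the 6 Ts1Cje samples 5 lay above the 2N median, and 1, replicate 2, was below all 2N samples. The log2 difference was 0.16 (SE 0.13, interval -0.12 to 0.44, limma adjusted p = 0.990, exact permutation p = 0.19). It was 0.31 among replicates 3 to 6 and -0.16 among replicates 1 and 2, and the difference between these values did not pass over all probe sets (interaction 0.47, limma adjusted p = 0.783).

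**Figure D2:**
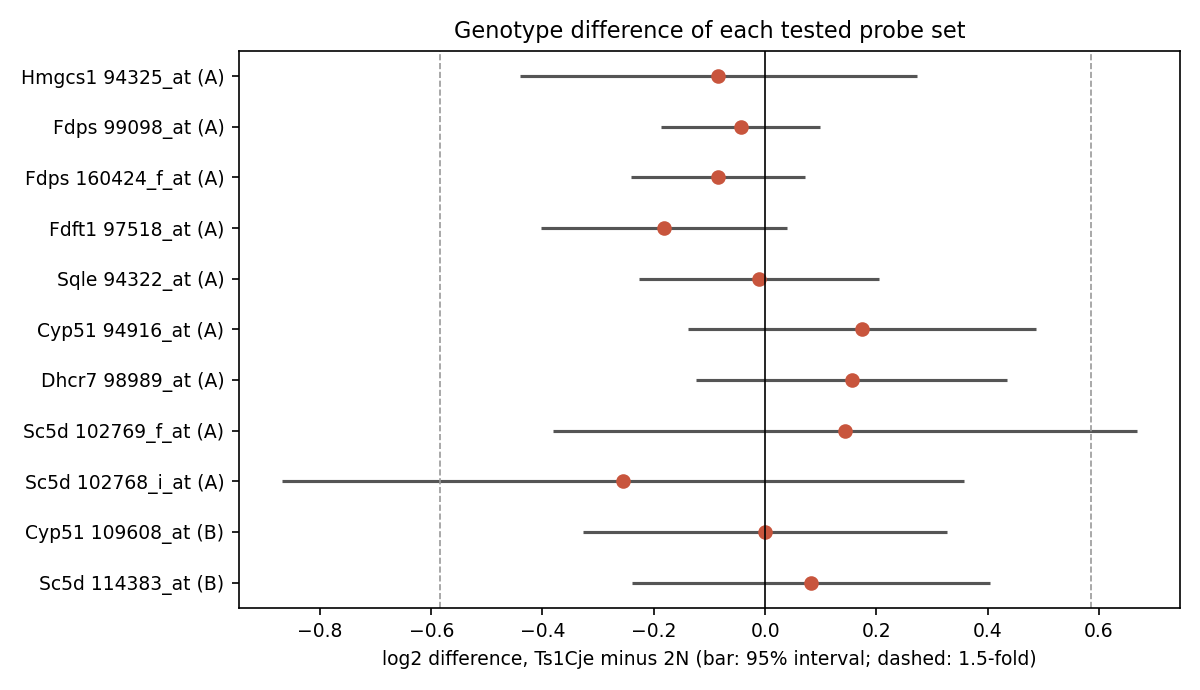
Log2 difference, Ts1Cje minus 2N, of the 11 tested probe sets with 95% intervals of the limma fit (n = 6 samples per genotype), and dashed lines at 1.5-fold in either direction. Every interval holds 0, and those of 9 probe sets lie inside the dashed lines, the exceptions being the 2 Sc5d probe sets of array A.

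The intervals show what size of change these samples leave room for. For 9 of the 11 probe sets, covering all 7 genes, the 95% interval excluded a 1.5-fold change in either direction. As ratios of Ts1Cje to 2N the limits were 0.879 and 1.07 for Fdps 99098_at, 0.756 and 1.03 for Fdft1, 0.854 and 1.15 for Sqle, 0.737 and 1.21 for Hmgcs1, and 0.917 and 1.35 for Dhcr7. For Cyp51 they were 0.909 and 1.40 with the array A probe set, and 0.797 and 1.26 with that of array B. Among replicates 3 to 6 alone this held for 7 of the 11, with Hmgcs1 (-0.66 to 0.33) and Dhcr7 (0.0070 to 0.62) no longer among them, and without normalisation between arrays for 2. In 2N the coefficient of variation over samples was 6.04% for Hmgcs1, 8.78% for Fdps 99098_at, 8.86% for Dhcr7, 14.1% for Fdft1, 15.0% for Sqle, 18.2% for Cyp51 on array A and 20.7% for Sc5d on array B.

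**Figure D3:**
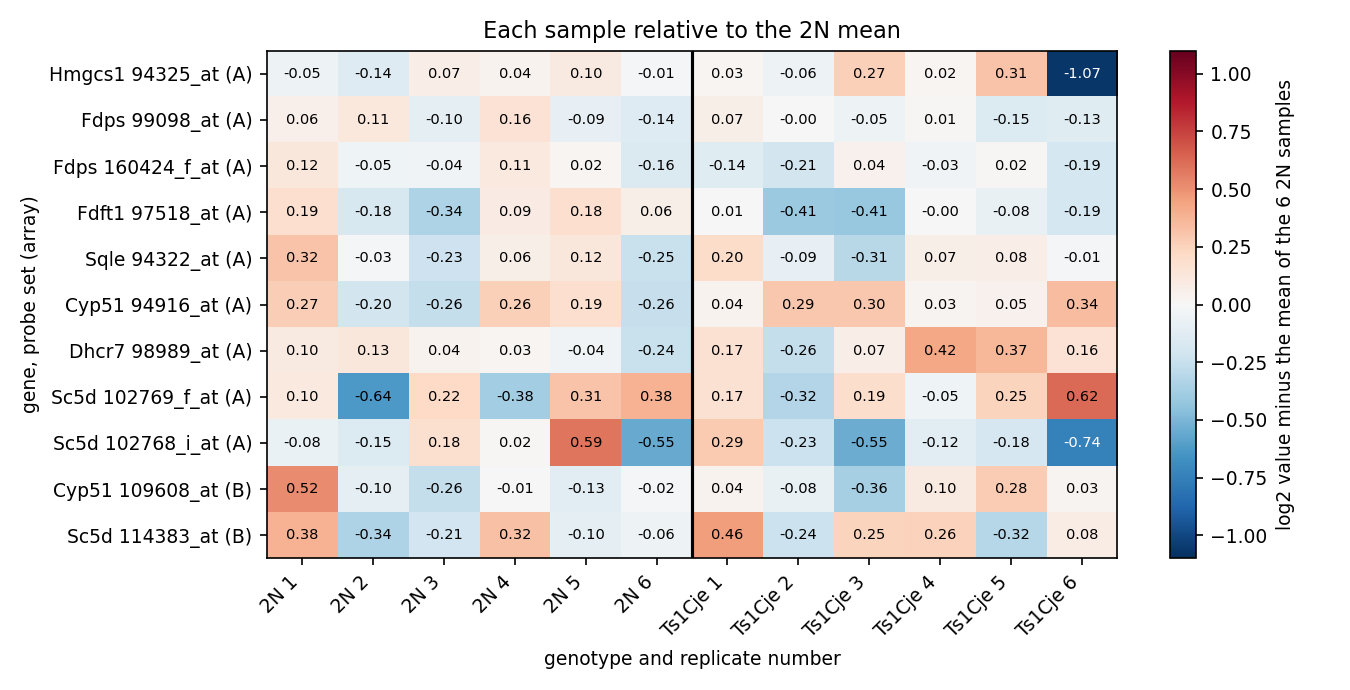
Log2 value of each sample minus the mean of the 6 2N samples, for the 11 tested probe sets (rows). Columns are the 6 2N and 6 Ts1Cje replicate numbers. Rows of arrays A and B are joined by title number, which the labels do not state to be the same RNA. Hmgcs1 in Ts1Cje replicate 6 stands at -1.07, and the rest of that column ranges from -0.74 to 0.62, with both extremes in the dim Sc5d probe sets.

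The other enzymes were nearer to their means in the sample with the low Hmgcs1 value. In Ts1Cje replicate 6 Hmgcs1 was -1.12 (log2) from the mean of the other 11 samples, while Fdps 99098_at was -0.12, Fdps 160424_f_at -0.16, Fdft1 -0.11, Cyp51 0.27, Sqle -0.00927 and Dhcr7 0.09, and the dim Sc5d probe sets -0.67 and 0.60. Of the 1812 tested probe sets with a mean intensity of at least 100 on array A, 3 were as far below in this sample, Hmgcs1 included, or 0.166%. The value was singled out after it was seen and was not tested.

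With both genotypes pooled, correlations between the enzymes from sample to sample were centred near 0. Those of all gene pairs processed in the same way were centred there as well. Correlations were taken over replicates 3 to 6 of both genotypes on array A (n = 8), because replicates 1 and 2 stood apart. Each gene entered by its brightest tested probe set. Over the 21 pairs the median Pearson r was -0.000267, 10 pairs were above 0, and the range was -0.91 to 0.67. The median over all pairs of 6855 named genes on the array was -0.00262, and 49.8% of those pairs were above 0. After adjustment over the 21 pairs 0 passed for r and 0 for rho, and 1 pair had an unadjusted exact permutation p under 0.05. The median of the 21 pairs was 0.18 over all 12 samples after genotype and replicate-split means were removed, 0.14 with the mean of a gene's probe sets, and 0.11 without Ts1Cje replicate 6. Within 1 genotype the samples were too few to test, and some pairs differed in sign. Sqle and Cyp51 had r = 0.97 in 2N and -0.67 in Ts1Cje, and Cyp51 and Dhcr7 0.44 and -0.94. Others did not, such as Fdft1 and Sqle at 0.66 and 0.96. The pooled values therefore do not settle how the enzymes vary within 2N brain.

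**Figure D4:**
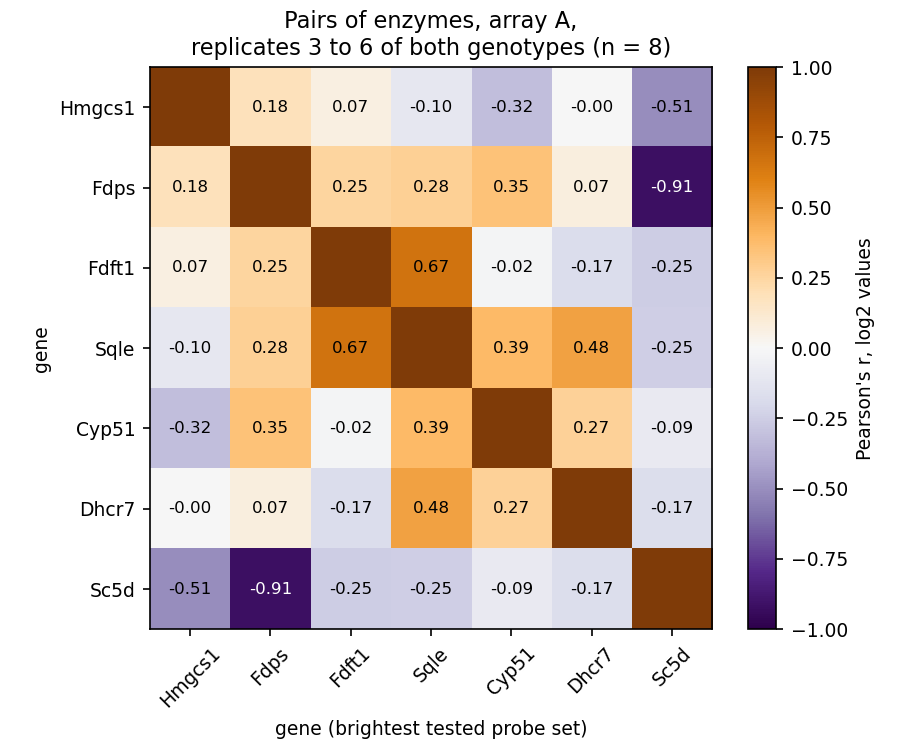
Pearson's r between log2 values of each pair of the 7 enzymes over 8 samples of array A (replicates 3 to 6 of 2N and Ts1Cje), with colour from -1 to 1. The pair Fdft1 and Sqle is the most positive at 0.67, the pair Fdps and Sc5d the most negative at -0.91, and 10 of 21 pairs are above 0. Every pair with Sc5d is below 0.

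Fdft1 and Sqle, whose enzymes act in succession on squalene, had the highest correlation, with Pearson r = 0.67 (exact permutation p = 0.074, adjusted over 21 pairs 0.78) and Spearman rho = 0.62 (exact permutation p = 0.11, adjusted 1). Without the 2 samples farthest from the Fdft1 median r was 0.09, a step that also narrows the range of Fdft1. Over all 12 samples it was 0.70, and without Ts1Cje replicate 6 it was 0.71. The permutation p-values treat same-numbered samples of both genotypes as independent, although a replicate block lowered the SE of both genes. Sqle and Dhcr7 followed with r = 0.48 and rho = 0.21 (exact permutation p = 0.23 and 0.62, adjusted 0.98 and 1). Without the 2 samples farthest from the Sqle median that r was 0.23. Fdps and Sc5d moved oppositely, with r = -0.91 (exact permutation p = 0.0030, adjusted 0.062) and rho = -0.79 (exact permutation p = 0.028, adjusted 0.59). Without the 2 samples farthest from the Fdps median r was -0.48, over a narrower range of Fdps. It was -0.80 over all 12 samples and -0.96 without Ts1Cje replicate 6. The Sc5d signal in that pair came from the dim probe set 102769_f_at.

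Probe sets of the same gene were compared in the same 8 samples, with array A and array B matched by title number, which the labels do not state to be the same RNA. The 2 brighter Fdps probe sets had r = 0.64 and rho = 0.62 (exact permutation p = 0.081 and 0.11, adjusted over 5 pairs 0.41 and 0.43), and r was 0.60 without the 2 farthest samples. The Cyp51 probe sets of arrays A and B had r = -0.01 and rho = 0.02 (exact permutation p = 0.98 for each, adjusted 0.98), and -0.64 without the 2 farthest samples. The Sc5d probe sets of array A had r = -0.36 with each other (exact permutation p = 0.38), and -0.27 and -0.52 with that of array B (exact permutation p = 0.52 and 0.19). Their rho values were -0.45, -0.14 and -0.55 (exact permutation p = 0.27, 0.75 and 0.17). After adjustment over the 5 pairs 0 passed, and without the 2 farthest samples the Sc5d values were -0.49, -0.15 and -0.60. Over all 12 samples r was 0.18 for Cyp51, and -0.19, 0.04 and 0.14 for the 3 Sc5d pairs in the same order.

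The genes whose profile over the same 8 samples was most like the mean of the 7 enzymes were Polg (r = 0.93), Kif5a (0.91), Serac1 (0.89), Eps15 (0.88) and Gsk3a (0.88), given as a description with no test. Polg, the mitochondrial DNA polymerase, and Eps15, an endocytic adaptor, were dim, at mean intensities of 8.38 and 9.34. Gsk3a, a protein kinase gene, was bright at 837, and Kif5a, a neuronal kinesin, was at 52.7. Over all 12 samples r was 0.90 for Kif5a, 0.62 for Gsk3a, 0.56 for Eps15, 0.29 for Serac1 and 0.21 for Polg. None is an enzyme of sterol synthesis.

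The other enzymes of cholesterol synthesis gave a similar picture between genotypes. Of 14 listed genes 11 were tested, and 0 passed in either direction, where 0.104% of 11489 genes over both arrays passed (limma). An unadjusted p under 0.05 was reached by 0 of the 11, against 3.66% of all genes. The log2 difference was above 0 for 3 and below 0 for 8, with a median of -0.01 beside -0.00379 over all genes, of which 49% were above 0. The brightest were Idi1, the isomerase that makes dimethylallyl diphosphate, and Mvk, mevalonate kinase. Idi1 had means of 146 ± 31.9 in 2N and 137 ± 25.7 in Ts1Cje (SD, n = 6; log2 difference -0.09, SE 0.15), and Mvk at 98.6 ± 18.1 and 102 ± 20.2 (0.04, SE 0.14). The smallest p-values were those of Lss, which closes the sterol rings, and Mvd, which makes isopentenyl diphosphate. Lss was at 28.3 ± 4.66 and 23.9 ± 5.88 (-0.26, SE 0.18, adjusted p = 0.990), and a dimmer Lss probe set on array B was at 0.27 (SE 0.47). Mvd was at 66.6 ± 11.4 and 60.4 ± 17.9 (-0.19, SE 0.19, adjusted p = 0.990).

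**Figure D5:**
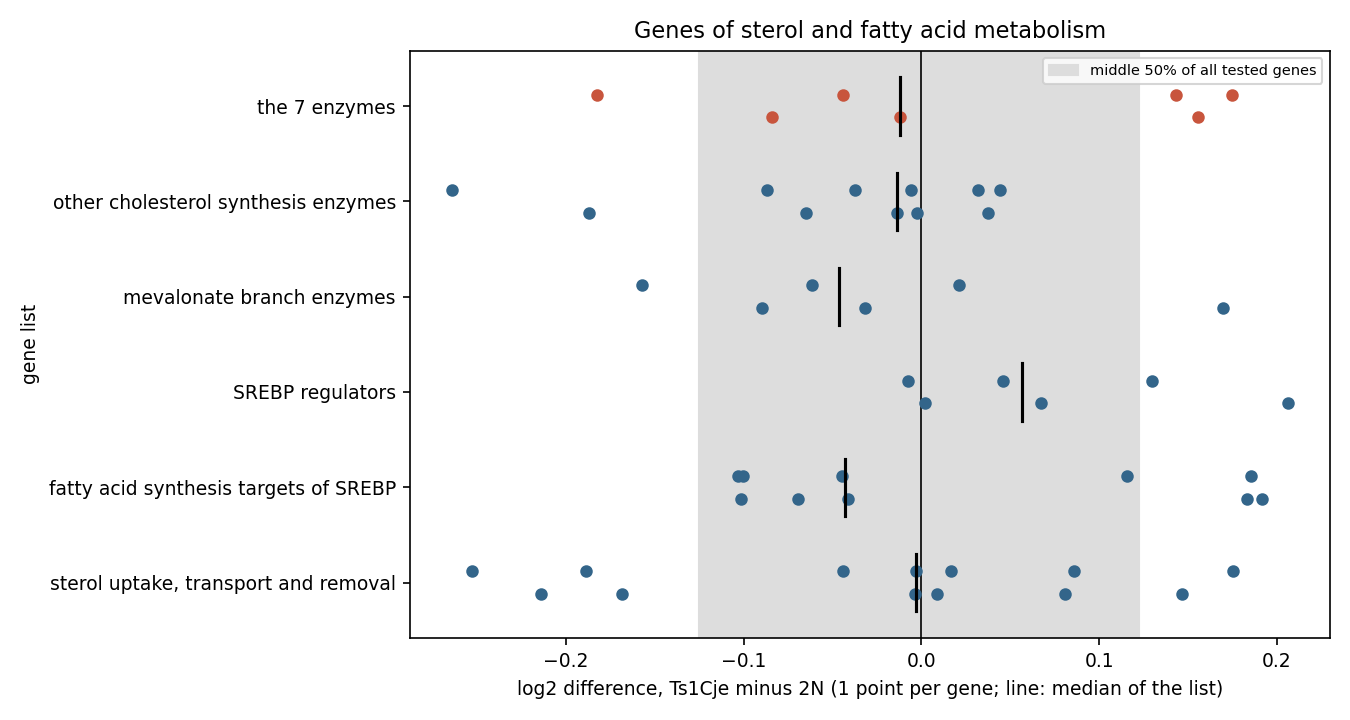
Log2 difference, Ts1Cje minus 2N, with 1 point per tested gene in 6 lists of sterol and fatty acid metabolism, a line at each list's median and a grey band for the middle 50% of all 11489 genes. The medians lie between -0.05 and 0.06, inside the band, and no gene passed the test.

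Regulators of the pathway did not pass either. Of 7 listed genes 6 were tested, with 0 called, 0 at an unadjusted p under 0.05 (limma), and differences from -0.00756 to 0.21 (median 0.06). Over all genes 0.104% were called and 3.66% had an unadjusted p under 0.05. Scap, the sterol-sensing escort of SREBP, averaged 125 ± 10.8 in 2N and 129 ± 10.7 in Ts1Cje (0.05, SE 0.082), and Srebf1 at 118 ± 14.7 and 118 ± 11.3 (0.0020, SE 0.098). The proteases that release SREBP, Mbtps1 and Mbtps2, were at 0.13 (SE 0.13) and 0.21 (SE 0.20), with adjusted p of 0.990 and 0.996. Srebf2, which encodes SREBP-2, was below the filter on dim probe sets. Insig1 was dim on array A, at a mean of 5.21, with an interval of -1.28 to 1.27. A brighter Insig1 probe set on array B, at a mean of 9.96, had a difference of -0.18 (SE 0.25, interval -0.69 to 0.34, adjusted p = 0.996). Over all 8 tested probe sets of the list 0 had an unadjusted p under 0.05.

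Fatty acid synthesis genes, many of them also SREBP targets, were all tested (10 of 10). By the brightest probe set of each gene 0 were called and 0 had an unadjusted p under 0.05 (limma), with differences from -0.10 to 0.19 (median -0.04). The shares over all genes were 0.104% and 3.66%. Over all 17 tested probe sets of these genes 0 were called and 1 had an unadjusted p under 0.05, and differences ran from -0.12 to 0.80. Scd2, the main brain desaturase of this family, averaged 588 ± 58.5 in 2N and 639 ± 76.8 in Ts1Cje (0.12, SE 0.086), and Fasn, fatty acid synthase, at 382 ± 16.5 and 357 ± 30.7 (-0.10, SE 0.068). A pair of dimmer Fasn probe sets on array B lay in the other direction, at 0.27 (SE 0.16) and 0.45 (SE 0.23). The smallest p-values were those of Scd1 at 0.19 (SE 0.12) and the malic enzyme gene Me1 at 0.18 (SE 0.12), and both had an adjusted p of 0.990. The probe set with the unadjusted p under 0.05 was another Scd1 set, somewhat dimmer at a mean of 44.4, with a difference of 0.80 (SE 0.24, unadjusted p = 0.0034, limma adjusted p = 0.888). It was named after its value was seen. The remaining, dimmest Scd1 set was at 0.22 (SE 0.47).

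Among genes of sterol uptake, transport and removal 13 of 20 were tested, with 0 called and 0 at an unadjusted p under 0.05 (limma). For all genes these shares were 0.104% and 3.66%. By the brightest probe set of each gene, differences ran from -0.25 to 0.18 (median -0.00286). Over all 22 tested probe sets of these genes they ran from -0.66 to 0.55, and 0 were called. Of all tested probe sets, 0.0966% were called on array A and 0.0645% on array B. Apoe, the main lipoprotein component of brain, averaged 969 ± 105 in 2N and 969 ± 123 in Ts1Cje (-0.00286, SE 0.088). Lrp1, a receptor for Apoe-containing particles, was at 253 ± 8.91 and 267 ± 8.96 (0.08, SE 0.060, adjusted p = 0.990, exact permutation p = 0.019). Abcg1, a sterol exporter gene, was at 43.7 ± 3.58 and 36.9 ± 5.66 (-0.25, SE 0.13, adjusted p = 0.990, exact permutation p = 0.037). Scarb1, a lipoprotein receptor gene, had means of 96.6 and 109 (0.18, SE 0.10, adjusted p = 0.990). A much dimmer Scarb1 probe set on array B lay in the other direction, at -0.66 (SE 0.43). The exact permutation p-values of Lrp1 and Abcg1 are for single genes and carry no adjustment.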

How the data were processed

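Values were intensities on a linear scale, deposited by the authors as 1 value per probe set and array. The probe summary and scaling are not given in the sources used here. All 24 columns were mapped to samples by accession. Median intensities were 11.2 to 21.7 for array A. For array B they were 7.9 to 13.8. The number of arrays limits the precision. After 66 control probe sets were left out, each table was quantile normalised, values under its 10th percentile (1.47 and 1.13) were raised to it, and values were put on a log2 scale. Probe sets whose mean intensity was under the 25th percentile were left untested. The rest was fitted with limma 3.58.1 in R 4.3.3 (lmFit, eBayes with trend) for Ts1Cje against 2N, within each table. A probe set passed at a Benjamini-Hochberg adjusted p under 0.05. A gene in a list was its brightest tested probe set, from array A where it was on both. Exact permutation p-values are two-sided over 924 splits of 12 samples, and for correlations over 40320 orders of 8 samples. The pipeline was tested on simulated data.

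The 7 genes and the lists were chosen with earlier results of these data known. Named were all probe sets of the enzymes, and from each list of the pathway the genes that passed or else the 2 brightest and the 2 with the smallest p, and for cell types the 2 brightest. The 5 genes most like the enzymes were those with the highest r. Symbols come from the platform annotation, and 10817 of 10833 single-symbol probe sets of array A, and 10550 of 10581 for array B, matched the RefSeq gene table (GRCm38.p6) by gene ID. Alternatives changed the normalisation, floor, offset, filter, variance trend, array weights, replicate block and samples. Same-numbered 2N and Ts1Cje samples were checked for pairing.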

Additional observations from a re-analysis of the deposited data

Results flagged for a closer look

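Within a genotype, 26 groups of 6 samples (13 probe sets in both genotypes) were examined for a sample far from the rest, and 4 were found, where chance alone gives about 1 in 20 groups. In Hmgcs1 the lowest Ts1Cje sample, replicate 6, was separated from the next by 0.732 of the group's log2 range, at 91.3 against 184 (normalised intensity). Its deposited intensity was 55.2. In Cyp51 on array B the highest 2N sample, replicate 1, was separated by 0.673 of the range, at 31.7 against 22.1. The other 2 were in Fdps probe sets too dim to test, where the low end of the log2 range was the floor, so the 1 in 20 does not apply to them. In 162281_at 2N replicate 2 was separated by 0.766, at 23.8 against 2.82, and in 162217_r_at Ts1Cje replicate 4 was separated by 0.744, at 4.14 against 1.91.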

How the results depend on the processing

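Under the alternatives and with each sample left out, 0 enzyme probe sets passed on either array (limma). So did 0 genes of the 4 lists of synthesis, regulators, fatty acid synthesis and sterol transport, for which the replicate split as a term was not run. The smallest adjusted p of an enzyme was 0.895, with the replicate number as a block. Array-wide, same-numbered samples deviated together only weakly (r from 0.02 to 0.08 on array A and 0.01 to 0.11 on array B). The numbers were therefore not taken as pairs. With the replicate block the medians were -0.04 and 0.04 and 0 passed, while the Fdft1 interval excluded 0, at -0.31 to -0.06. The block lowered the SE of Fdft1 from 0.10 to 0.058 and that of Sqle from 0.10 to 0.064. It raised the SE of array A Cyp51, Dhcr7 and Sc5d 102768_i_at, and lowered that of all the other enzyme probe sets. Fdps 99098_at went from 0.068 to 0.049, array B Sc5d from 0.15 to 0.11 and Hmgcs1 from 0.17 to 0.14. For Fdft1 and Sqle, same-numbered samples moved together more than the array-wide r shows, so their unpaired intervals may be too wide. The same may hold for the other probe sets whose SE the block lowered. Intervals of 9 of 11 enzyme probe sets excluded a 1.5-fold change, but 7 did among replicates 3 to 6, 4 among replicates 1 and 2, and 2 without normalisation between arrays. Signs of small differences were not stable. Among replicates 1 and 2 alone Hmgcs1 was at 0.081, Dhcr7 at -0.16, Sc5d 102768_i_at at 0.14 and array B Cyp51 at -0.23, and among replicates 3 to 6 alone Sqle was at 0.028. Array B Cyp51 was at -0.00146 with 64 added and -0.00787 with array weights. With 1 sample left out Sqle ran from -0.062 to 0.051, Hmgcs1 from -0.16 to 0.11 and array B Cyp51 from -0.056 to 0.10. The median correlation of the enzymes was 0.81 without normalisation between arrays, where the median over all gene pairs was 0.67. It was 0.18 over all 12 samples after removing genotype and replicate-split means, 0.14 with the mean of all tested probe sets of a gene, and from -0.015 to 0.11 with 1 sample left out, highest without Ts1Cje replicate 6. The replicate split as a term and the leave-one-out correlations were chosen after seeing the data. Dim probe sets limit Sc5d and Insig1 on array A, and Srebf2.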

Other observations

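Mevalonate also feeds the lipids that anchor proteins to membranes, and the enzymes of these branches were measured as well. Of 8 listed genes 6 were tested, with 0 called and 0 at an unadjusted p under 0.05 (limma), against 0.104% and 3.66% of all genes. Fnta, the shared subunit of the farnesyl and geranylgeranyl transferases, was at 137 ± 14.2 in 2N and 154 ± 20.9 in Ts1Cje (SD, n = 6; log2 difference 0.17, SE 0.10, adjusted p = 0.990). Its partner for farnesylation, Fntb, was at 28.7 ± 2.67 and 26.2 ± 5.78 (-0.16, SE 0.16, adjusted p = 0.990). Coq2, which attaches the side chain of ubiquinone, was at 74.5 ± 7.03 and 75.5 ± 5.85 (0.02, SE 0.089).

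Among markers of other cell types that brain samples can hold, the microglial C1qc averaged 103 ± 16.7 in 2N and 84.0 ± 22.4 in Ts1Cje (log2 difference -0.32, SE 0.16, limma adjusted p = 0.990), and C1qa 56.9 ± 11.3 and 57.5 ± 6.55. Of the microglial list 4 of 5 differences were below 0 (median -0.19), and 0 passed, where 0.104% of all genes passed. The endothelial Cldn5 averaged 170 ± 17.1 and 175 ± 16.2, and Eng 87.0 ± 21.5 and 104 ± 22.4. Of the choroid plexus list Igf2 averaged 715 ± 78.7 and 655 ± 77.9, and Ttr 244 ± 113 and 239 ± 57.6. Of this list 3 of 4 log2 differences were above 0 (median 0.21), Ttr included at 0.06, and 0 passed. The erythroid Hba-a1 averaged 1113 ± 206 and 992 ± 62.2, and Hbb-b2 76.9 ± 20.4 and 67.4 ± 12.7. Apoa2 of the liver list was dim, at 8.30 ± 5.37 and 12.6 ± 4.09. The summed level of the oligodendrocyte list ran from 214 to 282 in 2N and from 232 to 280 in Ts1Cje. That sum rests mostly on the brightest markers, Pdgfra and Sox10. Of this list 6 of 7 log2 differences were below 0 (median -0.06), and 0 passed. Differences were above 0 for 8 of 8 neuron, 6 of 8 astrocyte and 4 of 6 endothelial markers, beside 49% of all genes. All 3 erythroid differences were below 0, and all 3 of the liver list, with Apoa1 and Apoa2 dim, were above 0.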
